A study of Mus musculus with 6 samples.

Results

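Collagen chains were followed in bladders of Get1 -/- (null) and Get1 +/- (heterozygous) mouse embryos at embryonic day 18.5, with 3 expression arrays of each genotype. The chains were all genes whose symbol in the array annotation has the form of a collagen alpha chain, and 42 of the 18193 genes with a single symbol fitted it. They comprised 11 fibrillar chains, 9 chains of basement membranes and 22 other chains. The gene Get1, now called Grhl3, encodes a transcription factor of the grainyhead family that acts in surface epithelia. The heterozygous embryos were the controls and themselves carry 1 null allele, and no wild-type sample was analysed here. The sources used here do not give the strain, the sex, the nature of the null allele or whether bladders were pooled, so p-values measure only the spread between these samples. The null arrays are numbered 1 to 3 and the heterozygous arrays 4 to 6, as in the sample titles. The titles also hold a first number, in which null 1 alone differs from all other arrays, and the labels do not explain it. The question of the series is which transcripts differ in bladders that lack Get1. Get1 itself (listed as Grhl3) had a signal of 76.6, 21.5 and 120 on the null and 143, 133 and 126 on the heterozygous arrays. Every null array was lower, null 3 by little, and the difference of −0.95, null minus heterozygous on the log2(signal + 16) scale, did not pass (SE 0.44, adjusted p = 0.655, limma). Whether this probe set lies in the part of the gene that was removed was not settled, so the value does not check the labels.

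Collagens are proteins of the extracellular matrix in which chains with a repeated glycine wind into helical trimers. Fibrillar collagens give a tissue its tensile strength, type IV collagen forms the sheet under epithelia and around muscle and vessels, and other types link, coat or anchor these structures or span the cell membrane. In the bladder wall the fibrillar types I and III lie between the muscle bundles and under the urothelium, where they let the wall stretch and hold.

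None of the collagen chains differed between the genotypes at an adjusted p under 0.05 (limma, Benjamini-Hochberg over all genes tested). Of the 42 chains, 38 had a signal above the filter on dim genes and were tested, and 0 of them passed in either direction, where 0.510% of all 12735 genes tested did (0.448% higher and 0.0628% lower in null). At an unadjusted p under 0.05, 5 chains were lower and 0 higher in null bladders, against 4.30% lower and 3.63% higher of all genes (7.93% in either direction). These 5 were Col9a1, Col8a2, Col9a3, Col26a1 and Col23a1, all outside the fibrillar and basement membrane classes. Groups did not overlap for 6 of the 38 chains, 5 lower and 1 higher in null, against 7.36% lower and 6.07% higher of all genes (13.4% in either direction). Values are PLIER signals, analysed as log2(signal + 16), and a difference is null minus heterozygous on that scale.

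The main chains of the matrix had close means in both genotypes. Col1a1, Col1a2 and Col3a1 differed by 0.01, −0.05 and 0.08, and Col4a1 and Col4a2 by 0.00 and 0.08. The median difference was −0.05 for the 9 tested fibrillar chains, −0.11 for the 9 basement membrane chains and −0.24 for the 20 tested other chains, where all genes had −0.03. Below 0 lay 5 of 9, 5 of 9 and 16 of 20 differences in these classes, against 54.9% of all genes. The median size of a difference, whatever its sign, was 0.08, 0.22 and 0.44, against 0.23 over all genes. Differences of more than 1 were found in 3 of the 38 chains, all in the last class, and in 3.66% of all genes. These medians describe the lists and were not tested.

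**Figure D1:**
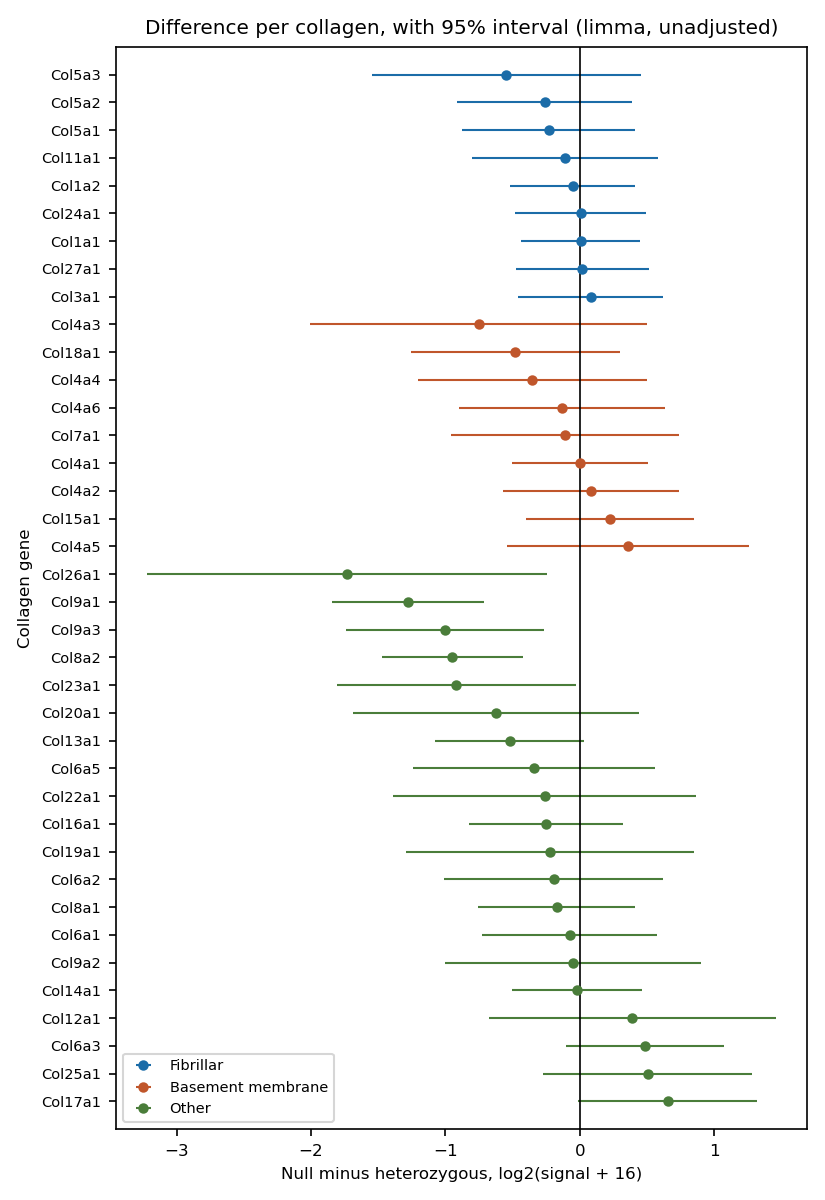
Difference of each of the 38 tested collagens, null minus heterozygous on the log2(signal + 16) scale (horizontal axis), with the 95% interval of limma, not adjusted for the number of genes (bars). Fibrillar chains are blue, basement membrane chains orange and other chains green; the 5 intervals that leave out 0, all below it, belong to Col26a1, Col9a1, Col9a3, Col8a2 and Col23a1.

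The promoters of Col9a1 and Col8a2, the chains with the lowest p, are shown because these chains were lower on every null array, and the start region of Col4a1 and Col4a2 because the genes are read in opposite directions from it. Sequences are from RefSeq (build GRCm38.p6), which held windows for 33 of the 42 chains, and run 5′ to 3′ on the strand of the gene from 250 bases before its start to 30 after. The first Col9a1 window lies at chr1:24177360-24177639 and the second, at a start inside the gene, at chr1:24194953-24195232, both on the plus strand. The Col8a2 window lies at chr4:126286544-126286823 on the plus strand. Capitals in the promoters mark matches on either strand to the letters of the TATA box (TATAAA), the CCAAT box (CCAAT), the GC box (GGGCGG) or the grainyhead-like consensus (AACCGGTT).
Col9a1, first start: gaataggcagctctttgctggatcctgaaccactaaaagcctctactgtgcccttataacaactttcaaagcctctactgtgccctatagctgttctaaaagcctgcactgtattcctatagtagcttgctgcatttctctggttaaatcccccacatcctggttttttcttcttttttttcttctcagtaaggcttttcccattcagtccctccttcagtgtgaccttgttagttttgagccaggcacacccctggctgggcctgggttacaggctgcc
Col9a1, second start: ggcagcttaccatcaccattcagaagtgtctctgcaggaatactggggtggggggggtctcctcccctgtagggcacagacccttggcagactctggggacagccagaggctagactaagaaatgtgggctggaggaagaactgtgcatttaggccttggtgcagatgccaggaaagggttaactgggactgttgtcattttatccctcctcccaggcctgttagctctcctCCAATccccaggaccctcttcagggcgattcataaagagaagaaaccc
Col8a2: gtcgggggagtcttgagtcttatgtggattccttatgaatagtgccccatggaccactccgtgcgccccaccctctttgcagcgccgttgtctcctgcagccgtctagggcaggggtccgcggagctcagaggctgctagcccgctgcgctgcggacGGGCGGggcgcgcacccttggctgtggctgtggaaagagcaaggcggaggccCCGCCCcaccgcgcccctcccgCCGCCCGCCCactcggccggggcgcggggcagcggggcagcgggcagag
Col4a2 and Col4a1, capitals from the start of Col4a2 to that of Col4a1: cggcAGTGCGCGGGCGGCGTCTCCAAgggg

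The windows differ in composition. G or C made up 46.8% and 54.6% of the Col9a1 windows and 71.8% of that of Col8a2, with 0, 1 and 28 CG steps. The second Col9a1 window had a CCAAT match that begins 18 bases before the start, and Col8a2 had 4 matches to the GC box letters, which begin 93, 41, 19 and 15 bases before the start and of which the last 2 overlap. Over 32851 mouse windows of 300 bases, 13.6% held the TATA box letters, 37.4% the CCAAT box letters, 35.7% the GC box letters and 0.146% those of the grainyhead-like consensus. Of 36 collagen windows of that length 5, 13, 22 and 0 did. A match is a run of letters and no binding site, and these arrays do not show which start was used. The Col4a2 and Col4a1 stretch lies at chr8:11312801-11312830 and is written on the plus strand. In this annotation Col4a2 starts at base 11312805 and runs towards higher positions, and Col4a1 starts at base 11312826 and runs towards lower ones, so their first 22 bases overlap.

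Arrays differed from each other in ways that touch collagens. Heterozygous 6 had the highest signal of the 6 arrays for 18 of the 38 tested collagens (47.4%) and for 32.2% of all genes tested. Null 1 had the lowest for 12 collagens (31.6%) and for 24.2% of all genes. Heterozygous 4 had the lowest for 10 collagens (26.3%), among them 5 of 9 basement membrane chains, and for 12.9% of all genes. Heterozygous 6 was highest for 6 of 9 basement membrane chains and for 10 of 20 other chains, but for 2 of 9 fibrillar chains. The SD was larger among the heterozygous than among the null arrays for 7 of 9 fibrillar chains, 7 of 9 basement membrane chains and 13 of 20 other chains, and for 63.5% of all genes. At an unadjusted p under 0.05 (limma), 5 chains were lower in null with all arrays. Without null 1 there were 2 such chains, and without heterozygous 6 there were 3. Median signals over all probe sets lay between 58.2 and 72.4, and the correlation between arrays over all probe sets between 0.936 and 0.958. Depth does not apply to arrays, and their number limits the precision.

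**Figure D2:**
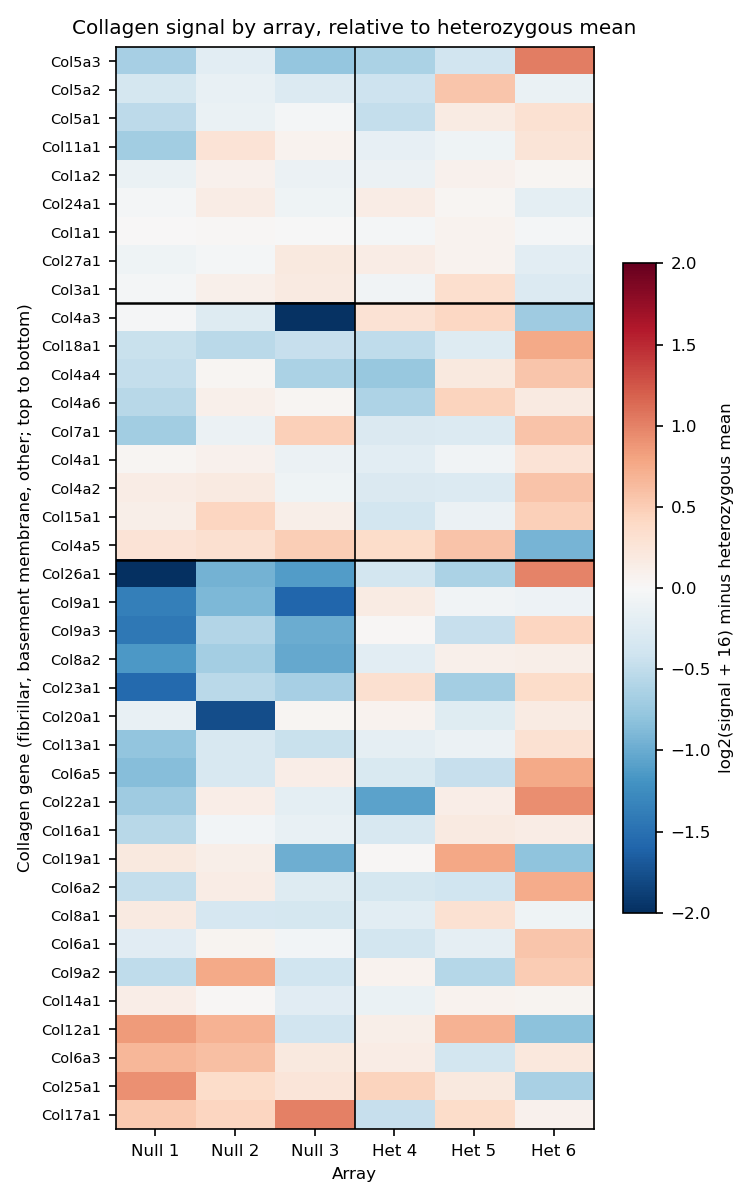
Signal of the 38 tested collagens (rows) on the 6 arrays (columns), as log2(signal + 16) minus the mean of the heterozygous arrays, with red above and blue below that mean and colours held at −2 and 2. Fibrillar chains stand at the top, basement membrane chains in the middle and other chains at the bottom; the last block begins with Col26a1, Col9a1, Col9a3 and Col8a2, lower on every null array, and heterozygous 6 holds the reddest cell, for Col5a3.

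Cell type markers were read on the same arrays as a check of the tissue. Urothelial and smooth muscle markers, 14 and 10 genes, were all above the filter. Of the 14 urothelial genes 1 passed as lower in null and 0 as higher, against 0.0628% and 0.448% of all genes. The 1 was Upk2, a uroplakin of the luminal surface (−3.03, adjusted p = 0.00223, limma). The groups did not overlap for 6 of the 14 (4 lower and 2 higher), against 13.4% of all genes (7.36% lower and 6.07% higher). The 4 were Upk2, Upk1a (−2.36), Krt18 (−0.50) and Grhl3 (−0.95), and the 2 were Krt19 (1.15) and Foxa1 (0.69). The median difference of the 14 was −0.42, and their summed signal was 41055 to 49417 on null and 40980 to 55644 on heterozygous arrays. The summed signal of 10 fibroblast markers was 15059 to 17575 on null and 19315 to 24452 on heterozygous arrays and did not overlap. Pdgfra and Dpt, the brightest of the 10, weigh most in this sum. Pdgfra had 3799 to 6946 on null and 6428.5 to 8128 on heterozygous arrays, and Dpt 3685 to 3772 and 4599 to 7749. Of the 10 genes 0 passed the test (median difference −0.07). The groups did not overlap for 2 of these, both lower, against 7.36% lower of all genes. The summed signal of 10 smooth muscle markers was 166880 to 192130 on null and 129080 to 167810 on heterozygous arrays (0 of 10 passed, median 0.31). All 10 had a difference above 0, where 54.9% of all genes lay below 0. The groups did not overlap for 3 of the 10, all higher in null, against 6.07% higher of all genes. Of 8 endothelial markers 0 passed (median −0.19). The groups did not overlap for 1 of the 8 (12.5%), higher in null, near the 13.4% of all genes. Their sums were 2369 to 3213 on null and 3113 to 3930 on heterozygous arrays. Intestinal markers stood apart, with sums of 16043 to 25672 on null and 317 to 745 on heterozygous arrays. Of the 11 tested, 10 passed as higher in null, against 0.448% of all genes. Of 8 skeletal muscle, 5 mesothelial, 5 glial and 3 bone markers tested 0 passed, against 0.510% of all genes. The groups did not overlap for 1, 3, 1 and 0 of these, against 13.4% of all genes. The 8 skeletal muscle markers varied between arrays. Their mean distance in log2 level from the heterozygous mean was −1.03, 0.76 and −0.18 on null and −0.20, 0.43 and −0.23 on heterozygous arrays. The part of these cells in the collagen values was not tested. In whole bladders, fewer cells of a type and less RNA per cell cannot be told apart.

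Among fibrillar chains, types I and III make up most of the fibrils of connective tissue. Col1a1, the chain present in 2 copies in a type I trimer, had a signal of 22654, 22813 and 22440 on the null and 21922, 23724 and 21959 on the heterozygous arrays. The groups overlapped, with log2 levels of 14.47 ± 0.01 (null) and 14.46 ± 0.07 (heterozygous; SD over 3 arrays; 95% interval of the difference −0.44 to 0.45). A second Col1a1 probe set spread more widely, at 13284, 13921 and 12553 on null and 11514, 15966 and 10206 on heterozygous arrays. Its difference was 0.10, so the small SD belongs to the chosen probe set of Col1a1. Its partner Col1a2 had 22042, 25614 and 22251 on null and 22150, 25590 and 24759 on heterozygous arrays, with a difference of −0.05 (interval −0.52 to 0.41). Col3a1, which forms trimers of its own in fibrils that also hold type I, had 23267, 25737 and 27204 on null arrays. On heterozygous arrays it had 22928, 30354 and 19790, so these 3 arrays enclosed the null ones. Its difference was 0.08 (interval −0.46 to 0.62). The widest bound of the 3 intervals was 0.62. These intervals are not adjusted for the number of genes and hold only for the chosen probe set of each chain.

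Type V collagen, which starts type I fibrils and limits their width, varied more among the heterozygous arrays. Col5a1 had 2163, 2834 and 3019 on null and 2220, 3497 and 3855 on heterozygous arrays (difference −0.23, SE 0.28). Col5a2 had 6449, 7428 and 6824 on null and 6204, 12096 and 7491 on heterozygous arrays (−0.26, SE 0.28). Here heterozygous 5 alone was high. Col5a3 had the largest difference of the fibrillar class, −0.55 (SE 0.43, adjusted p = 0.828, limma). Its signal was 171, 240.1 and 156 on null and 174, 210.4 and 584 on heterozygous arrays, so that heterozygous 6 alone was high. Without that array the difference of Col5a3 was −0.04.

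The remaining fibrillar chains are known from cartilage or from sparse fibrils. Col11a1, the type XI partner of type II in cartilage, had 137, 285 and 245 on null and 205, 217 and 281 on heterozygous arrays (−0.11, SE 0.30). Col24a1 and Col27a1 differed by 0.01 and 0.02, with signals of 152 to 198 and 274 to 368 over all arrays. Col2a1, the fibrillar chain of cartilage, and Col11a2 were not tested, since their means lay below the filter at a log2 level of 5.80, a signal of 39.7. Col2a1 had 24.1, 25.1 and 1.1 on null and 1.51, 85.5 and 28.2 on heterozygous arrays, and Col11a2 stayed between 0.852 and 18.0. No order of the genotypes was read from signals this low.

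For basement membrane collagens the groups overlapped in all 9 chains, where they did not overlap for 13.4% of all genes. With 9 chains this count does not set the class apart. Col4a1 and Col4a2, which join in the ubiquitous type IV network, had nearly the same order of arrays. Col4a1 had 13912, 14319 and 12516 on null and 11764, 12868 and 16429 on heterozygous arrays. Col4a2 had 8745, 8953 and 7408 on null and 6413, 6517 and 11650 on heterozygous arrays. On both chains heterozygous 6 was the highest and heterozygous 4 the lowest array, with the null arrays between them. The intervals of the differences were −0.51 to 0.51 and −0.57 to 0.74. Without heterozygous 6 the difference of Col4a2 was 0.37.

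The chains of the more restricted type IV networks were less alike. Col4a5 and Col4a6, which share a network in bladder smooth muscle and in some epithelia, lie side by side on the X chromosome. Col4a5 had 2546, 2612 and 2954 on null and 2700, 3130 and 1089 on heterozygous arrays, with heterozygous 6 alone low. Its difference was 0.36 (SE 0.39), and −0.11 without that array. Col4a6 had 263, 424 and 406 on null and 251, 539 and 447 on heterozygous arrays (−0.13, SE 0.33). A further Col4a6 probe set had a difference of 0.40, so its direction depended on the probe set. Col4a4 had 193, 281 and 171 on null and 155, 316 and 409 on heterozygous arrays (−0.35, SE 0.37). Col4a3, known with Col4a4 from the kidney filter, was close to the dim limit with 57.0, 45.6 and 2.87 on null and 74.8, 83.0 and 28.9 on heterozygous arrays. Its difference of −0.75 (SE 0.54, adjusted p = 0.805, limma) was the largest of the class, but was −0.14 without null 3. That of Col4a4 was −0.07 without heterozygous 6.

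**Figure D3:**
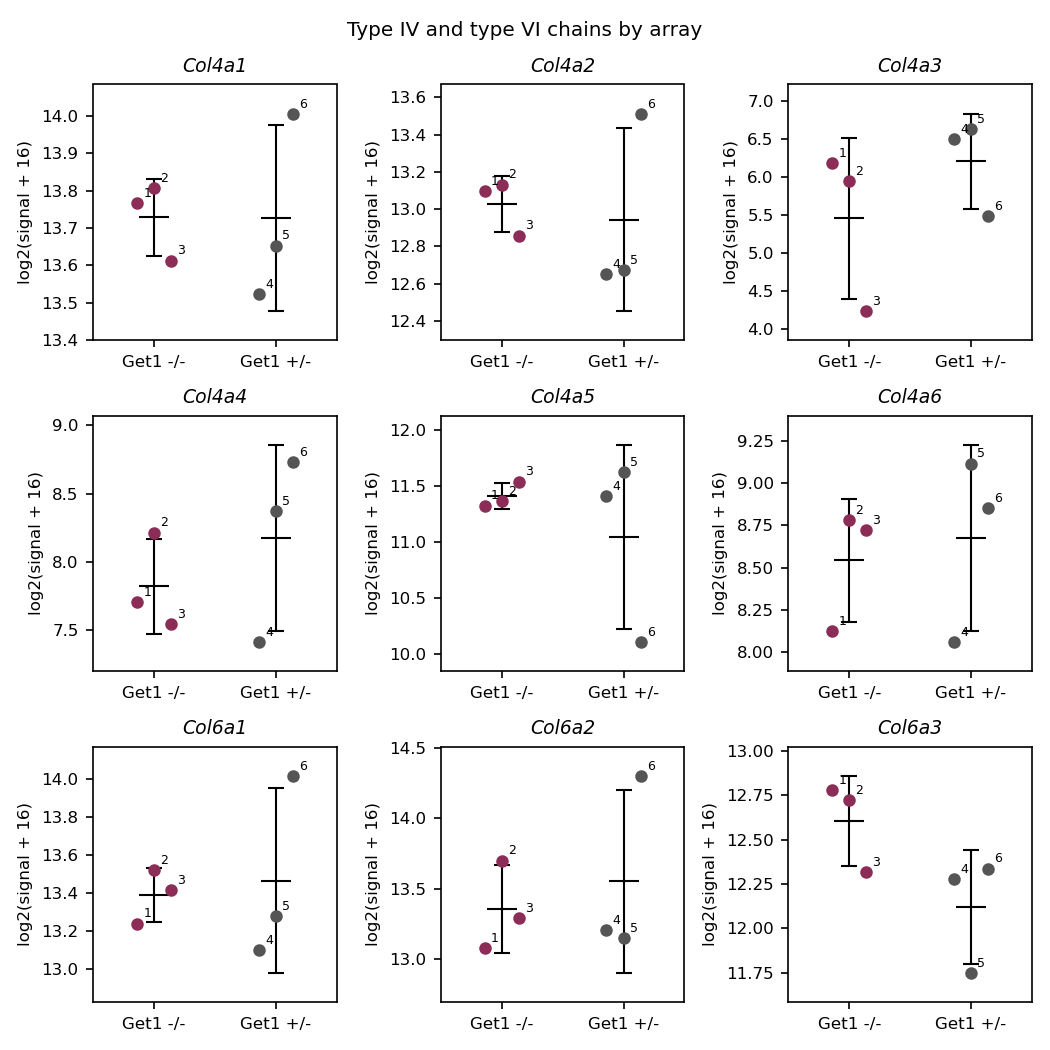
Level of the 6 type IV chains and of Col6a1, Col6a2 and Col6a3 on each array as log2(signal + 16) (vertical axes, which do not start at 0), null in purple and heterozygous in grey, numbered by array, with mean and SD of 3 arrays. Heterozygous 6 is the highest array for Col4a1, Col4a2, Col6a1 and Col6a2 and the lowest for Col4a5, and the groups overlap in every panel.

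The other chains of the basement membrane zone also overlapped between genotypes. Col18a1, the source of endostatin, had 714, 664 and 702 on null and 680.4, 813 and 1664 on heterozygous arrays. The difference of −0.48 (SE 0.34, adjusted p = 0.797, limma) was −0.10 without heterozygous 6. Its other probe set had a difference of −0.60. Col15a1, a relative of Col18a1 found around muscle and vessels, had 1745, 2176 and 1746 on null and 1246, 1476 and 2246 on heterozygous arrays (0.22, SE 0.27). Col7a1, which forms the anchoring fibrils under stratified epithelia, had 49.4, 82.1 and 132 on null and 70.7, 71.4 and 141 on heterozygous arrays (−0.11, SE 0.37).

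The 5 chains at an unadjusted p under 0.05 were all in the class of other chains, and 2 of them belong to type IX. Type IX collagen coats fibrils without forming fibrils of its own, and is best known from cartilage and the eye. Col9a1 had a signal of 82.5, 120.3 and 68.9 on null and 268, 227 and 221 on heterozygous arrays. Every null array was below every heterozygous array, and the heterozygous values were close to each other. Log2 levels of 6.71 ± 0.35 (null) and 7.99 ± 0.14 (heterozygous; SD, n = 3 each) gave a 2.43-fold difference (−1.28, SE 0.25, p = 8.43e-04, adjusted p = 0.125, limma; exact two-sided permutation p = 0.1, which is the lowest value possible with 3 arrays a group). Over the fits that left out 1 array the difference lay between −1.47 and −1.13 and the adjusted p between 0.137 and 0.391, and over all alternatives the adjusted p ran from 0.0822 to 0.879. A dim second probe set, with signals of 14.4 to 50.5 on null and 1.53 to 12.5 on heterozygous arrays, went the other way by 0.82, and with probe sets averaged the difference was −0.23.

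The partner chains of Col9a1 were not alike. Col9a3 had 86.1, 169 and 123 on null and 266, 184 and 357 on heterozygous arrays, again without overlap. Its difference was −1.0 (SE 0.32, p = 0.0140, adjusted p = 0.435, limma; exact permutation p = 0.1). With its 3 probe sets averaged it was −0.43. Col9a2 had 35.4, 108 and 39.1 on null and 60.4, 33.0 and 87.3 on heterozygous arrays (−0.05, SE 0.41), with the groups mixed. Of 10 cartilage markers 6 (Matn1, Matn3, Matn4, Cnmd, Snorc and Ucma) lay below the filter and 4 were tested. Of the 4 tested 0 passed, against 0.510% of all genes. Acan, Hapln1 and Comp differed by −1.24, −0.74 and −0.21 and Sox9 by 0.62, with a median of −0.47. The summed signal of these 4 was 1047 to 2040 on null and 1711 to 2161 on heterozygous arrays, and the part of cartilage in the type IX values was not tested.

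Type VIII collagen is a short network-forming collagen of vessel walls and of the basement membrane of the cornea. Col8a2 had a signal of 245, 343 and 266 on null and 482, 599.6 and 606 on heterozygous arrays. The groups lay apart, at log2 levels of 8.22 ± 0.24 and 9.17 ± 0.18 (SD, n = 3 each), a 1.93-fold difference (−0.95, SE 0.23, p = 0.00317, adjusted p = 0.256, limma; exact permutation p = 0.1). In the 17 alternative fits its difference stayed between −1.08 and −0.85 and its adjusted p between 0.200 and 0.611. Col8a2 has a single probe set. Col8a1 had 1419, 989.9 and 985 on null and 1080, 1554 and 1185 on heterozygous arrays (−0.17, SE 0.25), with the groups mixed.

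Col26a1, a collagen with few helical repeats, had the largest difference of all 38 chains, −1.73 (SE 0.64, p = 0.0276, adjusted p = 0.551, limma; exact permutation p = 0.1). Its signal was 43.4, 252 and 222 on null and 388, 318 and 1020 on heterozygous arrays. All null arrays were lower, and null 1 and heterozygous 6 lay far from the others of their groups. Without null 1 the difference was −1.04, and without heterozygous 6 it was −1.24.

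Membrane-spanning collagens went both ways. Col23a1 had 56.6, 131 and 119 on null and 252, 117 and 258 on heterozygous arrays, with an overlap through heterozygous 5 (−0.92, SE 0.39, p = 0.0447, adjusted p = 0.616, limma; exact permutation p = 0.3). A second Col23a1 probe set separated the groups at a difference of −0.71, and without null 1 the chosen one gave −0.60. Col13a1, found at cell contacts with the matrix and at the neuromuscular junction, had 123, 175 and 159 on null and 196, 204 and 278 on heterozygous arrays, without overlap (−0.52, SE 0.24, adjusted p = 0.650, limma). Col17a1, the hemidesmosome collagen of basal epithelial cells, was the 1 chain with every null array higher. It had 90.9, 84.4 and 133 on null and 38.2, 80.2 and 63.0 on heterozygous arrays (0.65, SE 0.29, adjusted p = 0.629, limma), and its difference was 0.43 without heterozygous 4 and with an offset of 64. Col25a1, a membrane collagen needed for the innervation of muscle, had 5694, 3897 and 3600 on null and 4127, 3483 and 1926 on heterozygous arrays (0.51, SE 0.34), with the groups overlapping.

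**Figure D4:**
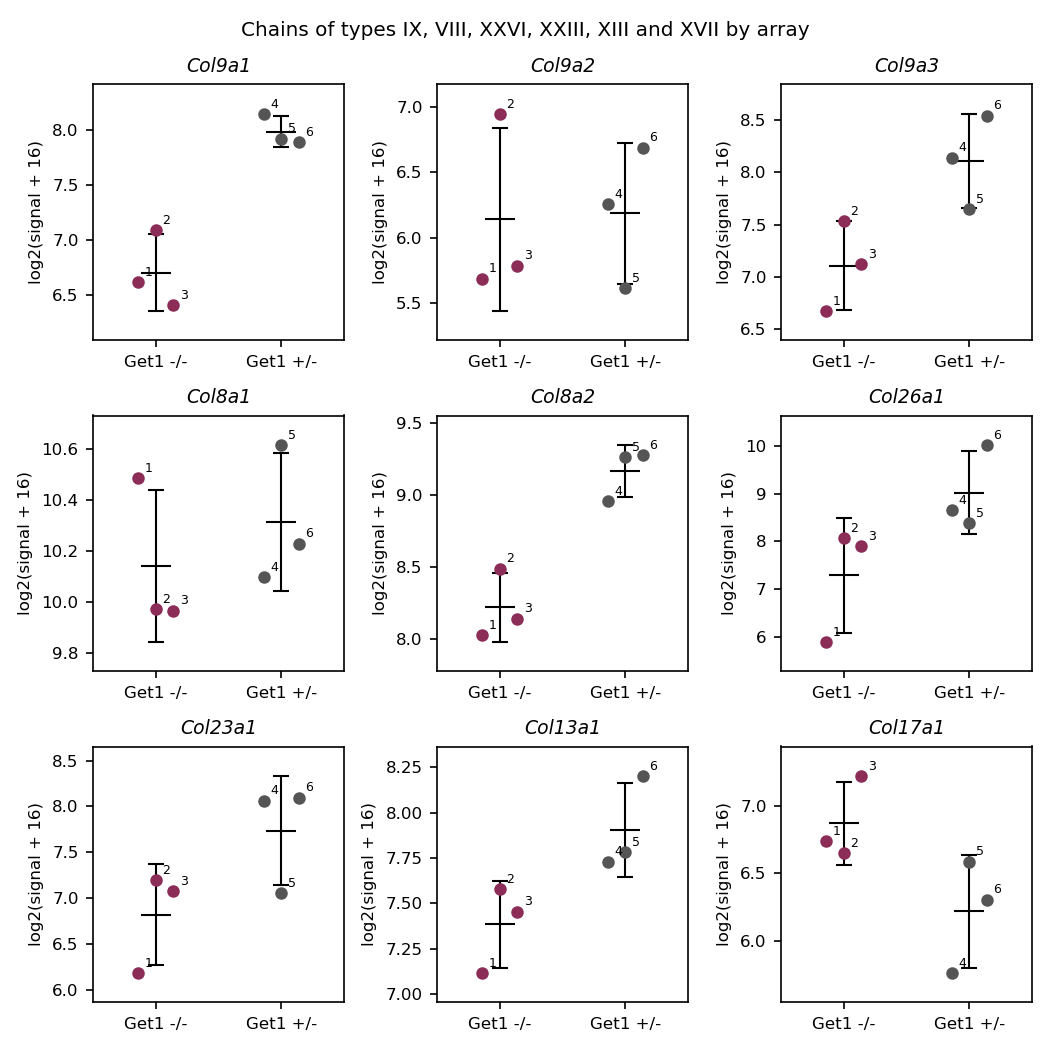
Level of 9 non-fibrillar chains on each array as log2(signal + 16) (vertical axes, which do not start at 0), null in purple and heterozygous in grey, numbered by array, with mean and SD of 3 arrays. Every null array lies below every heterozygous array for Col9a1, Col9a3, Col8a2, Col26a1 and Col13a1 and above for Col17a1; for Col9a2, Col8a1 and Col23a1 the groups overlap.

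Type VI collagen, which forms beaded filaments around cells, showed its chains in different order across the arrays. Col6a1 had 9668, 11758 and 10917 on null and 8768, 9947 and 16569 on heterozygous arrays. Col6a2 had 8648, 13290 and 10001 on null and 9435, 9073 and 20147 on heterozygous arrays. Heterozygous 6 was the highest array for these 2 chains, and their differences were −0.07 (SE 0.28) and −0.19 (SE 0.35), or 0.20 and 0.18 without it. Col6a3, the long chain that joins them, had 7010, 6744 and 5083 on null and 4945, 3423 and 5153 on heterozygous arrays. Its difference was 0.49 (SE 0.25, adjusted p = 0.722, limma), and null 3 and heterozygous 6 made the groups overlap. Col6a5, close to the dim limit at 22.9 to 102, differed by −0.34 (SE 0.39), and Col6a4 was below the filter at 11.0 to 76.5.

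The collagens that bind along fibrils had mixed differences. Col14a1, a fibril-bound chain of connective tissue, had 6649, 6136 and 5184 on null and 5498, 6362 and 6306 on heterozygous arrays (−0.02, SE 0.21), though a dimmer probe set gave −0.60. Col12a1, its relative, had 1583, 1415 and 662 on null and 941, 1418 and 484 on heterozygous arrays (0.39, SE 0.46). Col16a1 differed by −0.25 (SE 0.25), at 517 to 739 on null and 607 to 871 on heterozygous arrays. The dim chains Col19a1, Col20a1 and Col22a1 differed by −0.22, −0.62 and −0.26, with overlap. For Col20a1 null 2 stood apart, at 10.3 where the other 5 arrays had 60.1 to 84.6. Col10a1, the chain of growth plate cartilage, was not tested, with signals from 4.04 to 51.6.

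Probe sets of a chain did not always go the same way. The 42 chains had 82 probe sets, of which 59 had a mean above the limit for dim genes, and 18 chains had several of these. In 8 of the 18 the probe sets differed in sign, namely Col1a2, Col3a1, Col4a1, Col4a5, Col4a6, Col5a1, Col5a2 and Col8a1, all with differences between −0.26 and 0.40. In a fit over all probe sets, 0 of the 68 collagen probe sets tested passed, against 0.203% of all 31570 tested (limma, Benjamini-Hochberg over all of these).

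Genes that make, assemble, cut and bind collagen were read from lists of the pathway. None of the 58 tested genes passed at an adjusted p under 0.05 in either direction (limma), where 0.510% of all genes did. At an unadjusted p under 0.05, 1 was lower and 0 higher, a smaller share than the 4.30% lower and 3.63% higher of all genes. Groups did not overlap for 2 of the 58 (3.45%), 1 in each direction, against 13.4% of all genes. Of the 19 tested genes of folding and modification 10 had a difference above 0, with a median of 0.02. P4ha1, a catalytic subunit of prolyl hydroxylase, differed by 0.44 and Creb3l1, a membrane-bound factor that drives collagen secretion, by 0.48, while the prolyl hydroxylase gene P3h1 differed by −0.46 (adjusted p = 0.779, 0.797 and 0.819, limma). These values moved with single arrays, and leaving out 1 array gave 0.27 to 0.67 for P4ha1, 0.17 to 0.73 for Creb3l1 and −0.70 to −0.09 for P3h1, the smallest without heterozygous 6, heterozygous 4 and heterozygous 6. Of 8 tested genes of processing and cross-linking 7 had a difference below 0, against 54.9% of all genes, with a median of −0.14. Lox, the enzyme that cross-links fibrils, was the exception, at 13383, 11426 and 9977 on null and 9527, 10580 and 7652 on heterozygous arrays (0.33, SE 0.23, adjusted p = 0.797, limma), and 0.20 without heterozygous 6. Its relatives Loxl1 and Loxl3 differed by −0.36 and −0.37, with ranges of −0.54 to −0.25 and −0.63 to −0.08 when 1 array was left out, the ends reached without heterozygous 4 and heterozygous 6 for Loxl1 and without null 2 and null 1 for Loxl3.

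Among 15 fibril partners the median was −0.15. Kera and Fmod, small proteoglycans that bind fibrils, had the lowest p of this list. Kera had 114, 163 and 347 on null and 299.9, 395 and 422 on heterozygous arrays (−0.92, SE 0.38, adjusted p = 0.603, limma), with an overlap through null 3, and −0.60 without null 1. Fmod had 2073, 3590 and 2262 on null and 3022, 4269 and 5909 on heterozygous arrays (−0.72, SE 0.33, adjusted p = 0.637, limma). Nid2, which links laminin to type IV collagen, was lower on every null array, at 333 to 470.6 against 470.7 to 538, a gap smaller than the spread within either group (−0.33, SE 0.22, adjusted p = 0.787, limma), and its difference was −0.20 without null 3. Of 10 tested genes of collagen breakdown 8 were below 0, against 54.9% of all genes, with a median of −0.31. Among the 8 were Mmp16 (−0.64) and the collagen uptake receptor Mrc2 (−0.63). Without heterozygous 6 Mmp16 differed by −0.41, and without null 1 Mrc2 differed by −0.28. Timp3, a matrix-bound inhibitor of metalloproteinases, was higher on every null array, at 3715, 3128 and 3513 against 2418, 2849 and 2581 (0.40, SE 0.20, adjusted p = 0.710, limma). Of 6 tested receptors 4 were above 0, with a median of 0.21, and Itga1 and Itgb1, which pair as a collagen receptor of smooth muscle, differed by 0.52 and 0.57 (adjusted p = 0.779 and 0.758). Both were lowest on heterozygous 6, at 7033 for Itga1 and 1043 for Itgb1, where the other arrays had at least 15213 and 1727, and without that array they differed by 0.14 and 0.23.

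**Figure D5:**
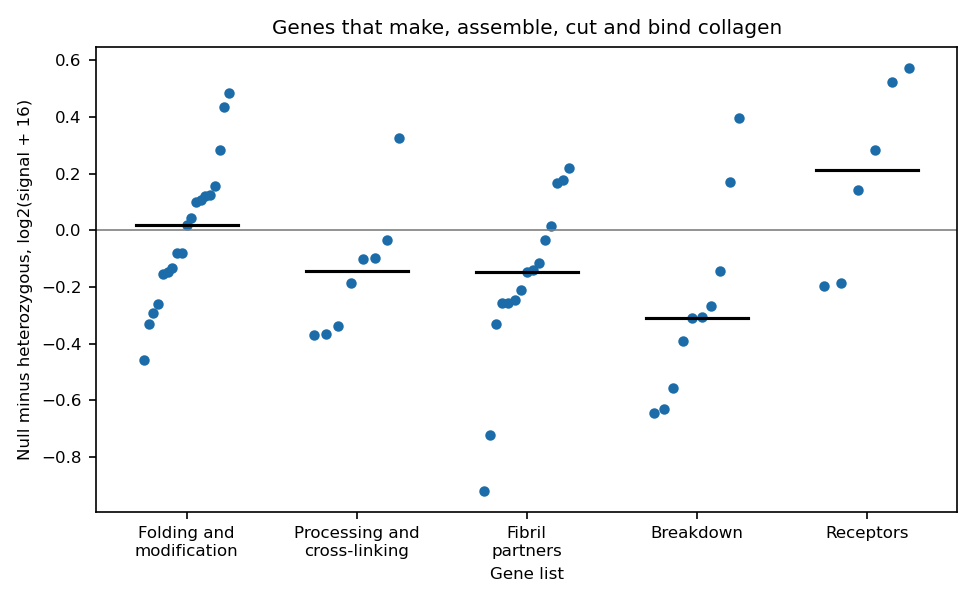
Difference of each tested gene of 5 collagen pathway lists, null minus heterozygous on the log2(signal + 16) scale (points, sorted within a list), with the median of each list (line). Medians run from −0.31 for breakdown to 0.21 for receptors, and none of the points passed the test over all genes.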

How the data were processed

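RNA of 6 bladders or bladder pools was measured on Affymetrix arrays. The authors deposited linear intensity values per probe set. The submitters' processing notes name Expression Console 1.1 and PLIER 2.0, while the sources used here do not give the background and normalization steps. The upper quartile ranged from 336 to 372 over arrays. The labels describe a labelling kit for whole-transcript arrays, whose effect on these probe sets is unknown. Of 45101 probe sets, 64 were controls, 34945 had 1 symbol, 932 several and 9160 none here. Each gene was read from the probe set whose mean over the 6 arrays was highest. Values were taken as log2(value + 16), which understates the change of dim genes. The lowest 30% of genes were left out (12735 of 18193 remained). Genotypes were tested with limma (version 3.58.1, R version 4.3.3), two-sided, with p-values adjusted by Benjamini-Hochberg over all genes tested. The fit was run on simulated data with independent noise per gene, which cannot show how it handles differences shared by a whole array. Named with values per array were 15 chains fixed as a list, chains at an unadjusted p under 0.05, the 3 largest differences per class, and up to 3 pathway genes per list, and the further chains were added to account for all members. The members and lists were chosen with earlier results of these data known. Alternatives were other offsets, filters, normalizations, weights, averaged probe sets, leaving out arrays and, chosen after seeing the data, a fit over all probe sets.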

Additional observations from a re-analysis of the deposited data

How the results depend on the processing

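No paired analysis was possible because the replicate numbers of the groups (1 to 3 and 4 to 6) are not shared. In 17 alternative fits 0 collagens and 0 pathway genes passed, and the 3 class medians moved by less than the spread between arrays. They ranged from −0.12 to 0.015 (fibrillar), −0.18 to 0.085 (basement membrane) and −0.42 to −0.066 (other chains). The 57 higher and 8 lower genes of the whole table became 36 and 5 with an offset of 1, and 5 were lower with the dimmest 50% left out, where Col9a1, Col23a1, Col17a1, Col7a1 and Col4a3 were not tested. With 1 array left out, 38 to 53 genes were higher and 5 to 9 lower. The collagens lower at an unadjusted p under 0.05 were 3 with probe sets averaged or arrays weighted, and 1 was higher in several fits. Of the 23 named collagens 11 kept their sign in every fit that gave a value. Signs turned with probe sets averaged for Col1a2 (0.031), Col4a1 (−0.079), Col4a6 (0.13) and Col5a1 (0.0097), with quantile normalization for Col4a1 (−0.014), and with array weights for Col4a6 (0.077), Col6a1 (0.15), Col6a2 (0.10) and Col7a1 (0.20). With the first number of the titles as a block, which leaves the same information as removing null 1, they turned for Col4a1 (−0.017), Col4a6 (0.076), Col6a1 (0.0030) and Col7a1 (0.18). With 1 array left out the difference ranged across 0 for Col1a1 (−0.012 to 0.045), Col3a1 (−0.057 to 0.25), Col4a1 (−0.10 to 0.14), Col4a2 (−0.063 to 0.37), Col4a5 (−0.11 to 0.65), Col4a6 (−0.44 to 0.086), Col5a2 (−0.47 to 0.015), Col6a1 (−0.26 to 0.20), Col6a2 (−0.40 to 0.18) and Col7a1 (−0.40 to 0.18). The cause was not tested. Signals near the dim limit, as of Col4a3 and Col9a2, limit what these chains can show.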
